A study of Mus musculus with 10 samples.

Results

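The genes described here are 35 chaperones, folding enzymes, degradation factors and stress regulators of the endoplasmic reticulum (ER). They were measured in embryonic mouse hearts in which Hccs had been deleted in a mosaic. Members were taken by name from a list of ER chaperone and unfolded protein response genes, with no threshold on their values, though earlier results of these arrays were known when the list was drawn up. All 35 were found among 18193 genes measured, 2 of them under older symbols that the array annotation now lists as Ero1a (Ero1l) and Ero1b (Ero1lb).

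The ER folds and glycosylates membrane and secreted proteins, and its lumen holds Hsp70, Hsp90 and lectin type chaperones together with disulfide isomerases. When unfolded proteins accumulate, the sensors IRE1 (encoded by Ern1), ATF6 and PERK (Eif2ak3) raise folding capacity: IRE1 splices the Xbp1 mRNA, ATF6 is cleaved to a transcription factor, and PERK phosphorylates eIF2alpha, which slows translation and favours ATF4. Other kinases, which respond to amino acid shortage, haem shortage or mitochondrial stress, also phosphorylate eIF2alpha. In the heart, the ER takes part in calcium storage, and calreticulin (Calr) is known to be needed for normal cardiac development.

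Hccs is an X-linked gene that encodes holocytochrome c synthase, the enzyme that attaches haem to the cytochromes c of the respiratory chain. Whole hearts came from female embryos at 13.5 days post coitum. They were either heterozygous for a heart-conditional Hccs knockout or control littermates, with 5 pools per genotype and 4 to 5 hearts in each pool. Through X inactivation, female heterozygotes hold both deficient and healthy cells, so each array read a mixture, and single embryos were not resolved. The Cre driver and the alleles that the controls carried are not given in the sources used here.

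Values are log2 signals of Affymetrix probe sets. A gene is represented by its brightest probe set, and a change is the knockout mean minus the control mean on the log2 scale, with the standard error (SE) and adjusted p from limma, an adjusted p under 0.05 counting as past the threshold. Because a probe set's brightness depends on its own sequence, no gene is called more abundant than another. Brightness served to choose probe sets and the genes named, and the signal of Uty, a Y-linked gene in these female hearts, served as a mark of background. In whole hearts, fewer cells of a type and less RNA per cell cannot be told apart.

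The targeted gene was lower in every knockout pool. Hccs averaged 11.23 ± 0.08 (SD, n = 5) in controls and 10.68 ± 0.20 (SD, n = 5) in knockouts, a change of -0.55 and a signal 31.7% lower (exact two-sided permutation p = 0.00794). Markers of cardiomyocytes, 1 fibroblast marker and 1 of the array's RNA control probe sets also differed. All 10 cardiomyocyte markers had lower means in the knockout, Myh7 (-0.47, adjusted p = 0.025) and Myl2 (-0.23, adjusted p = 0.0291) past the limma threshold, and the log2 of their summed signal was 18.37 to 18.51 in controls against 18.13 to 18.27 in knockouts. The fibroblast and matrix sum was 16.61 to 16.75 in controls and 16.74 to 16.90 in knockouts, so the genotypes overlapped slightly. Of its 10 markers, 5 were higher and 5 lower, and Tcf21 was past the threshold (0.61, adjusted p = 0.0376). Endothelial, epicardial, smooth muscle, erythroid and macrophage sums also overlapped between genotypes, as did those of neurons, liver and lung. No single marker of these lists passed the threshold. At an unadjusted limma p under 0.05, 3 of 8 endothelial markers were lower (37.5%, against 7.48% of all genes) and none higher. Groups did not overlap for Pdgfrb of smooth muscle (0.45) and Lyz2 of macrophages (-0.42), beside 3.86% of all genes higher and 1.92% lower. Liver sums ran from 9.36 to 12.89 in controls and from 9.09 to 14.72 in knockouts, and 3 of the 4 lung markers were no brighter than Uty. The 18S ribosomal 5′ control probe set read 10.05 ± 1.25 (SD, n = 5) in controls and 8.17 ± 0.35 (SD, n = 5) in knockouts (exact permutation p = 0.0238), with control 3 at 8.06. The middle and 3′ probe sets of 18S overlapped between genotypes (exact permutation p = 0.0794 and 0.222), as did the 3′ minus 5′ differences of Gapdh (p = 0.0952) and Actb (p = 0.222). The part of these differences in the results on ER genes was not tested.

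Promoter sequences are shown because the response to unfolded proteins is known to act through short elements close to the start of these genes, and members of the set carry different ones. RefSeq windows on GRCm38.p6, from 250 bases before to 50 bases after each annotated start, were found for 30 of the 35 members and searched on both strands. The following elements were sought by their letters: the ER stress element ERSE (CCAAT, then any 9 bases, then CCACG), ERSE-II (ATTGG, any 1 base, CCACG), the unfolded protein response element UPRE (TGACGTGG) and the C/EBP-ATF element CARE (TGATGNAA). A match describes the letters only. ERSE occurred in 10 of the 30 members (33.3%), namely Calr, Canx, Creld2, Derl3, Dnajc3, Ero1lb, Hsp90b1, Hspa5, Pdia6 and Syvn1, against 0.119% of the 32851 windows searched. ERSE-II occurred in Herpud1 and Dnajb11 (6.67% of members, 0.0365% of windows), CARE in Herpud1 alone (3.33% of members, 3.97% of windows) and UPRE in no member's window (0.676% of windows). Counted by gene, of 27025 genes with a window searched, 37 had ERSE, 12 ERSE-II, 1219 CARE and 193 UPRE.

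The 250 bases before the start are printed for Herpud1, the one member that passed the test, and for 3 chaperones that carry ERSE and did not. Each is written 5′ to 3′ on the gene's own strand with the matched letters in capitals. The positions are Herpud1, chr8:94386179-94386428, plus strand; Hspa5, chr2:34771840-34772089, plus strand; Hsp90b1, chr10:86705445-86705694, minus strand; and Calr, chr8:84846932-84847181, minus strand.
Herpud1: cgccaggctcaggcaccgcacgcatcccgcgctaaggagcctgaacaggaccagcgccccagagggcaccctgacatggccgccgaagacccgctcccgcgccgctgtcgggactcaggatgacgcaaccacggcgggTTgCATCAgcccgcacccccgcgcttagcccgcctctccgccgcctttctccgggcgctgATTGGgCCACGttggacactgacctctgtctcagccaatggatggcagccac
Hspa5: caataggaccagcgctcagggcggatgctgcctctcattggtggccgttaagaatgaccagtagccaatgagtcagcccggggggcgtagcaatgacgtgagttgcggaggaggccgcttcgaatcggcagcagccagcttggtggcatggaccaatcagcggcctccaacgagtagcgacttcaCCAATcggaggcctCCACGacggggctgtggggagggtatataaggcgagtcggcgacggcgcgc
Hsp90b1: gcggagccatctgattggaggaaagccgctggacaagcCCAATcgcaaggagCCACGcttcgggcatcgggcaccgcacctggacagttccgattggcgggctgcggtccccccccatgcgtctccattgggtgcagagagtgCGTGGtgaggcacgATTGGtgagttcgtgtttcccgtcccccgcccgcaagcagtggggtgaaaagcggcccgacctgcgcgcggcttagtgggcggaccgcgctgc
Calr: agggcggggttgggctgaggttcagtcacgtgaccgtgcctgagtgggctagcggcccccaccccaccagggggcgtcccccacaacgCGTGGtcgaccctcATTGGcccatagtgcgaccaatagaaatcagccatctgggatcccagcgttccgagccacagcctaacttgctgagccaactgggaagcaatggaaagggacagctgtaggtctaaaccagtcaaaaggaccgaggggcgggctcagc

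In Herpud1, the CARE letters lie on the reverse strand from -112 to -105 relative to the start, and ERSE-II lies from -52 to -42. Hspa5 has its ERSE from -65 to -47. Hsp90b1 has a forward copy from -212 to -194 and a reverse copy from -107 to -89, and Calr has a reverse copy from -162 to -144. Of the 10 members with ERSE, 0 rose and 0 fell by limma, their changes ran from -0.20 to 0.28, and 2 (Hsp90b1 and Dnajc3) were higher and none lower at an unadjusted p under 0.05 (13.2% and 7.48% of all genes). Of all 20 measured genes with ERSE, 10 of which are these members, none passed the threshold, and 3 were higher and none lower at an unadjusted p under 0.05. Among 9 measured genes with ERSE-II, 2 rose (22.2%), the member Herpud1 and Lrif1. Of the 468 measured genes with CARE, 13 rose (2.78%) and 5 fell, beside 1.63% and 0.945% of all genes. Of the 143 measured genes with UPRE, 1 rose (0.699%) and 3 fell.

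Herpud1 was the 1 ER gene of the 35 that rose, and no member fell. That is 2.86% of members, beside 1.63% of all genes higher and 0.945% lower by the same test. These shares of all genes depend on the arrays: 297 genes rose and 172 fell, against 73 and 32 without knockout 4 and 752 and 290 without knockout 1, with the other single arrays left out in between. The members' median change was -0.021 against 0.025 for all genes, with 16 members higher and 19 lower, where 60.5% of all genes were higher. At an unadjusted p under 0.05, 8 members were higher (22.9%, against 13.2% of all genes) and 3 were lower (8.57%, against 7.48%). The signals of 34 members were above that of Uty, Derl3 being the exception. Knockout and control arrays did not overlap for 1 member, Herpud1, which was higher. The same separation was seen in 3.86% of all genes in the higher direction and 1.92% in the lower.

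**Figure D1:**
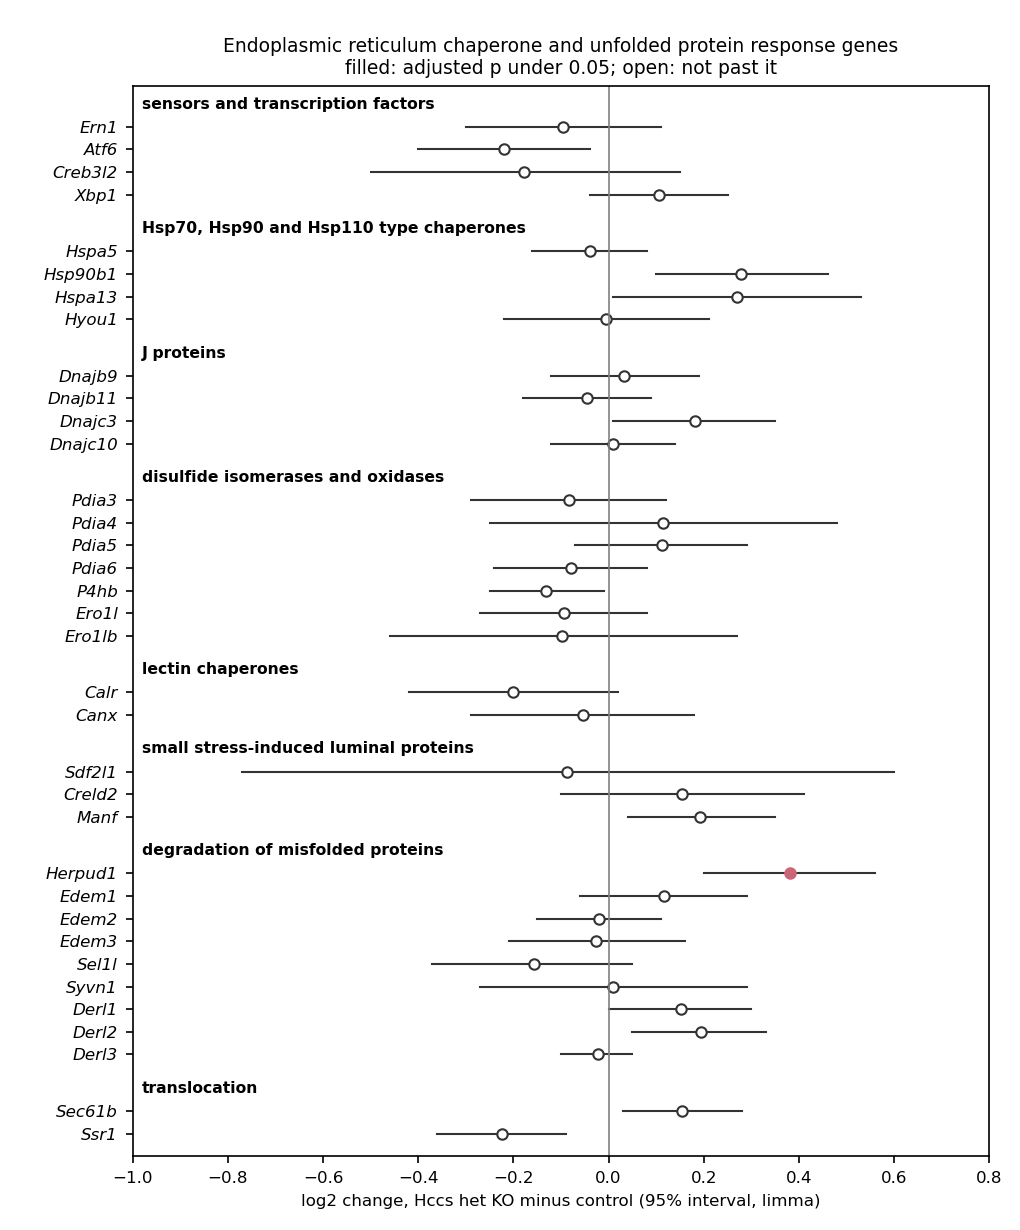
Log2 change (horizontal axis, Hccs heterozygous knockout minus control, n = 5 pools each) of the 35 genes in the order of their roles, with 95% intervals from limma; filled points are past an adjusted p of 0.05 and open points are not. Herpud1 (0.38) is the filled point, the other changes lie between -0.22 and 0.28, and Sdf2l1 has the widest interval, -0.77 to 0.60.

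The arrays set a limit on how large an undetected change in a probe set could be. Of the 34 members brighter than Uty, 30 had a 95% interval within 0.5 log2 units of 0, which is 1.41-fold, by their brightest probe set, the exceptions being Creb3l2, Hspa13, Sdf2l1 and Herpud1. Over all their probe sets brighter than Uty, 19 of the 34 did, so the limit holds for the probe set read and not always for the gene. The median SE was 0.08 for members and 0.072 for all genes.

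None of the 4 members that are sensors or transcription factors (Ern1, Atf6, Creb3l2 and Xbp1) passed the threshold. Xbp1, the transcription factor whose mRNA IRE1 splices, read 12.24, 12.21, 11.99, 12.15 and 12.20 in controls 1 to 5 and 12.15, 12.37, 12.14, 12.35 and 12.30 in knockouts 1 to 5. Knockouts 2, 4 and 5 lay above every control, and the other 2 lay within the control range. The change was 0.11 (SE 0.064, 95% interval -0.04 to 0.25, adjusted p = 0.371). The Xbp1 probe sets give total signal, and spliced and unspliced mRNA were not separated here. Atf6, whose product is cleaved in the Golgi under stress, was the member of this group with the smallest p. It ran from 7.92 to 8.30 in controls and from 7.75 to 8.02 in knockouts, a difference of -0.22 (SE 0.082) at an adjusted p of 0.175. The dimmer Atf6 probe sets differed by -0.098 and 0.29, so its direction depends on the probe set read. Ern1 differed by -0.096 (adjusted p = 0.574). Creb3l2, an ER-anchored transcription factor related to ATF6, differed by -0.18 (adjusted p = 0.511).

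Of the large ATP-driven chaperones, Hspa5 (BiP), the lumenal Hsp70 that holds the sensors inactive, is the classical readout of the response. Its brightest probe set read 14.52, 14.26, 14.27, 14.38 and 14.26 in controls and 14.35, 14.23, 14.27, 14.29 and 14.34 in knockouts. The genotypes overlapped, and the change was -0.040 (SE 0.055, 95% interval -0.16 to 0.08, adjusted p = 0.703). The other probe sets for Hspa5 gave different answers. Probe set 1427464_s_at read 13.52, 13.53, 13.54, 13.47 and 13.33 in controls and 13.68, 14.08, 14.10, 14.00 and 13.72 in knockouts. All 5 knockout pools were above all 5 controls, by 0.44 (SE 0.093, adjusted p = 0.0505 over the 34945 probe sets with 1 gene symbol). Probe set 1447824_x_at ran the other way, from 9.55 to 9.86 in controls and from 9.16 to 9.58 in knockouts (-0.37, SE 0.084, adjusted p = 0.0595). An s suffix marks probes shared by several transcripts, and an x suffix marks probes that may also match unrelated ones. The direction for Hspa5 therefore depends on the probe set read, and no single direction is given.

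Hsp90b1 (GRP94), the lumenal Hsp90, stood nearest to the threshold among members that were higher and did not pass. Controls read 13.63, 13.53, 13.65, 13.53 and 13.39, and knockouts read 13.62, 13.96, 14.01, 13.75 and 13.79. Knockouts 2 to 5 lay above every control, while knockout 1 lay inside the control range. The change was 0.28 (SE 0.080, 95% interval 0.10 to 0.46, adjusted p = 0.0995), and without knockout 1 it passed, at an adjusted p of 0.0370. A further Hsp90b1 probe set differed by 0.27 (SE 0.099, adjusted p = 0.176 over probe sets). Hspa13, a microsomal Hsp70 relative, ran from 10.08 to 10.49 in controls and from 10.29 to 10.90 in knockouts (0.27, SE 0.118, adjusted p = 0.235). Hyou1 (GRP170), the nucleotide exchange factor of Hspa5, differed by -0.0058 (adjusted p = 0.978).

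**Figure D2:**
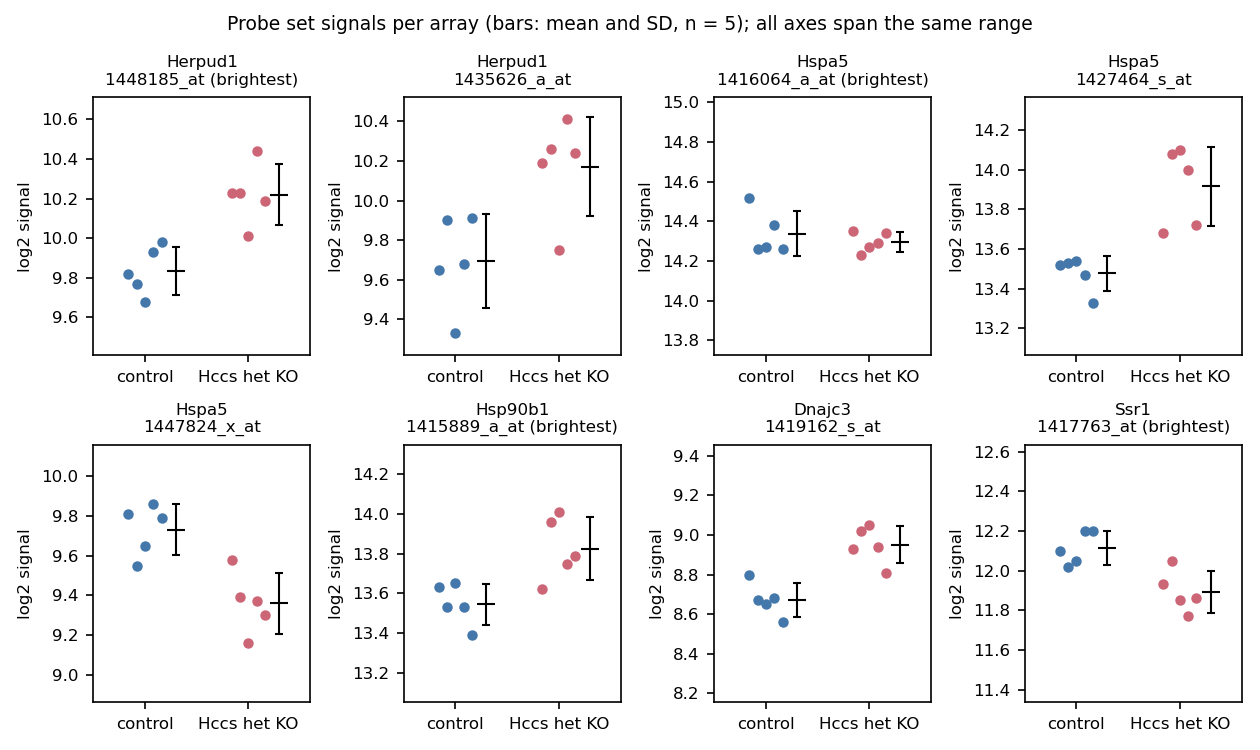
Log2 signal (vertical axes, all spanning the same range) of 8 probe sets on each array, controls at left and Hccs heterozygous knockouts at right; points are pools, and bars show the mean and SD (n = 5). The 3 Hspa5 panels show overlap, separation upward (0.44) and a lower mean with overlap (-0.37), while both Herpud1 panels have higher knockout means.

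J proteins stimulate the ATPase of Hspa5 and bring clients to it. Dnajb9, a known target of XBP1, read 10.86, 10.80, 10.72, 10.93 and 10.93 in controls and 10.80, 10.94, 10.69, 10.98 and 10.99 in knockouts. The genotypes overlapped, with a change of 0.033 (SE 0.069, 95% interval -0.12 to 0.19, adjusted p = 0.809). Dnajc3 (p58IPK), an inhibitor of PERK, had a change of 0.18 (SE 0.075, adjusted p = 0.215) by its brightest probe set. A dimmer Dnajc3 probe set, 1419162_s_at, was the one of the members' 86 probe sets to pass when all probe sets were tested. It read 8.80, 8.67, 8.65, 8.68 and 8.56 in controls and 8.93, 9.02, 9.05, 8.94 and 8.81 in knockouts, a change of 0.28 (SE 0.056, adjusted p = 0.0427). Every knockout pool lay above every control there. Dnajb11 (-0.045) and Dnajc10 (0.0098) had adjusted p values of 0.698 and 0.936.

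None of the 7 disulfide isomerases and oxidases passed, and 5 of them had lower means in the knockout. Pdia3 (ERp57), the isomerase that works with the lectin chaperones on glycoproteins, read 13.21, 13.21, 13.04, 13.15 and 13.16 in controls and 13.30, 13.04, 13.23, 12.98 and 12.79 in knockouts. Knockouts 1 and 3 were above all controls and knockouts 4 and 5 below all, so the spread was wider than the change of -0.083 (SE 0.091, 95% interval -0.29 to 0.12, adjusted p = 0.624). P4hb (PDI), also a subunit of collagen prolyl hydroxylase, ran from 12.56 to 12.85 in controls and from 12.58 to 12.67 in knockouts (-0.13, SE 0.054, adjusted p = 0.207). Pdia6 (-0.079), Ero1l (-0.094) and Ero1lb (-0.099) were also lower in mean, with adjusted p values of 0.512 to 0.755. Ero1l, the oxidase that recharges PDI, had a dimmer probe set, 1419029_at, whose arrays separated the other way (0.25, SE 0.065, adjusted p = 0.0861 over probe sets). Pdia4 (0.11) and Pdia5 (0.11) had adjusted p values of 0.709 and 0.454.

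Both lectin chaperones, which hold newly made glycoproteins until they fold, had lower means by their brightest probe sets without passing. Calr (calreticulin) read 14.57, 14.21, 14.66, 14.54 and 14.38 in controls and 14.38, 14.07, 14.21, 14.21 and 14.48 in knockouts. Knockout 2 was below every control and knockouts 3 and 4 equalled the lowest of them to 2 decimals, but knockouts 1 and 5 were within the control range. The change was -0.20 (SE 0.100, 95% interval -0.42 to 0.02, adjusted p = 0.286). Canx (calnexin), its membrane-bound counterpart, differed by -0.054 (SE 0.106, adjusted p = 0.795), while the dimmer Canx probe sets differed by 0.24 and 0.072.

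Small luminal proteins that are known to be induced strongly by ER stress gave no member past the threshold. Manf, a secreted trophic factor retained in the ER, read 12.61, 12.35, 12.30, 12.49 and 12.33 in controls and 12.62, 12.72, 12.52, 12.51 and 12.68 in knockouts. Knockouts 1, 2 and 5 were above every control, though knockout 1 (12.62) was close to control 1 (12.61). The change was 0.19 (SE 0.069, 95% interval 0.04 to 0.35, adjusted p = 0.165). Creld2 differed by 0.15 (SE 0.113, adjusted p = 0.463). Sdf2l1, a partner of the Hspa5 chaperone complex, ran from 6.55 to 7.44 in controls and from 6.23 to 7.77 in knockouts. Its interval, -0.77 to 0.60, was the widest of all members, so the arrays give little information on it.

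The degradation group held the member that rose. Herpud1 encodes a small ER membrane protein that helps to assemble the HRD1 ubiquitin ligase complex for misfolded proteins. Controls 1 to 5 read 9.82, 9.77, 9.68, 9.93 and 9.98, and knockouts 1 to 5 read 10.23, 10.23, 10.01, 10.44 and 10.19. Every knockout pool was above every control, the lowest of them being knockout 3, beside control 5. Means were 9.84 ± 0.12 (SD, n = 5) and 10.22 ± 0.15 (SD, n = 5), a change of 0.38 (SE 0.081, 95% interval 0.20 to 0.56), or 1.30-fold (1.15 to 1.48), with an adjusted p of 0.0445 over all genes. Tested over all probe sets, this Herpud1 probe set had an adjusted p of 0.0513 and did not pass. On that scale the Hspa5 probe set 1427464_s_at stood at 0.0505. The other Herpud1 probe set, 1435626_a_at, read 9.65, 9.90, 9.33, 9.68 and 9.91 in controls and 10.19, 10.26, 9.75, 10.41 and 10.24 in knockouts (0.47, SE 0.143, adjusted p = 0.12 over probe sets). There, knockout 3 lay within the control range and the other 4 lay above it. The call was close to the threshold: it was lost, at adjusted p values of 0.0733 to 0.0943, when control 1, 2, 3 or 4 or knockout 2, 4 or 5 was left out, and kept, at 0.0443 to 0.0486, when knockout 1, knockout 3 or control 5 was. The change itself stayed between 0.33 and 0.48 over all 21 alternatives.

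The ligase that Herpud1 serves, and the channel proteins beside it, did not pass. Derl1, a derlin of the retrotranslocation channel, read 11.81, 11.81, 11.52, 11.78 and 11.79 in controls and 11.81, 11.84, 11.85, 11.96 and 12.02 in knockouts. Knockouts 2 to 5 were above every control, and control 3 was apart from the other controls. The change was 0.15 (SE 0.066, 95% interval 0.00 to 0.30, adjusted p = 0.231), and 0.097 (adjusted p = 0.356) without control 3. Derl2 ran from 9.98 to 10.30 in controls and from 10.25 to 10.41 in knockouts (0.19, SE 0.062, adjusted p = 0.129), and its dimmer probe set differed by -0.18. Derl3 was at background, from 2.60 to 2.73 on all arrays and below the level of Uty (3.72), and is given no fold. Syvn1 (HRD1, the ligase) differed by 0.0093 (adjusted p = 0.973) and its scaffold Sel1l by -0.16 (adjusted p = 0.363). The dimmer Sel1l probe sets differed by 0.29, 0.15, -0.11 and 0.63, so its direction depends on the probe set read. The mannose-trimming factors Edem1, Edem2 and Edem3 differed by 0.12, -0.021 and -0.026, with adjusted p values of 0.419 to 0.879.

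The 2 translocation genes lay on opposite sides of 0. Sec61b, a subunit of the Sec61 channel through which new proteins enter the ER, read 12.26, 12.12, 12.04, 12.15 and 12.20 in controls and 12.26, 12.22, 12.48, 12.26 and 12.34 in knockouts. All knockouts were above the control median, and 3 were above every control (0.15, SE 0.057, 95% interval 0.03 to 0.28, adjusted p = 0.173). Ssr1 (TRAP alpha), a subunit of the translocon-associated complex, had the lowest p of the members that were lower. It read 12.10, 12.02, 12.05, 12.20 and 12.20 in controls and 11.93, 12.05, 11.85, 11.77 and 11.86 in knockouts. Knockouts 1, 3, 4 and 5 were below every control and knockout 2 was within their range (-0.22, SE 0.060, adjusted p = 0.0809). Its dimmer probe sets differed by -0.21, 0.24 and -0.41.

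**Figure D3:**
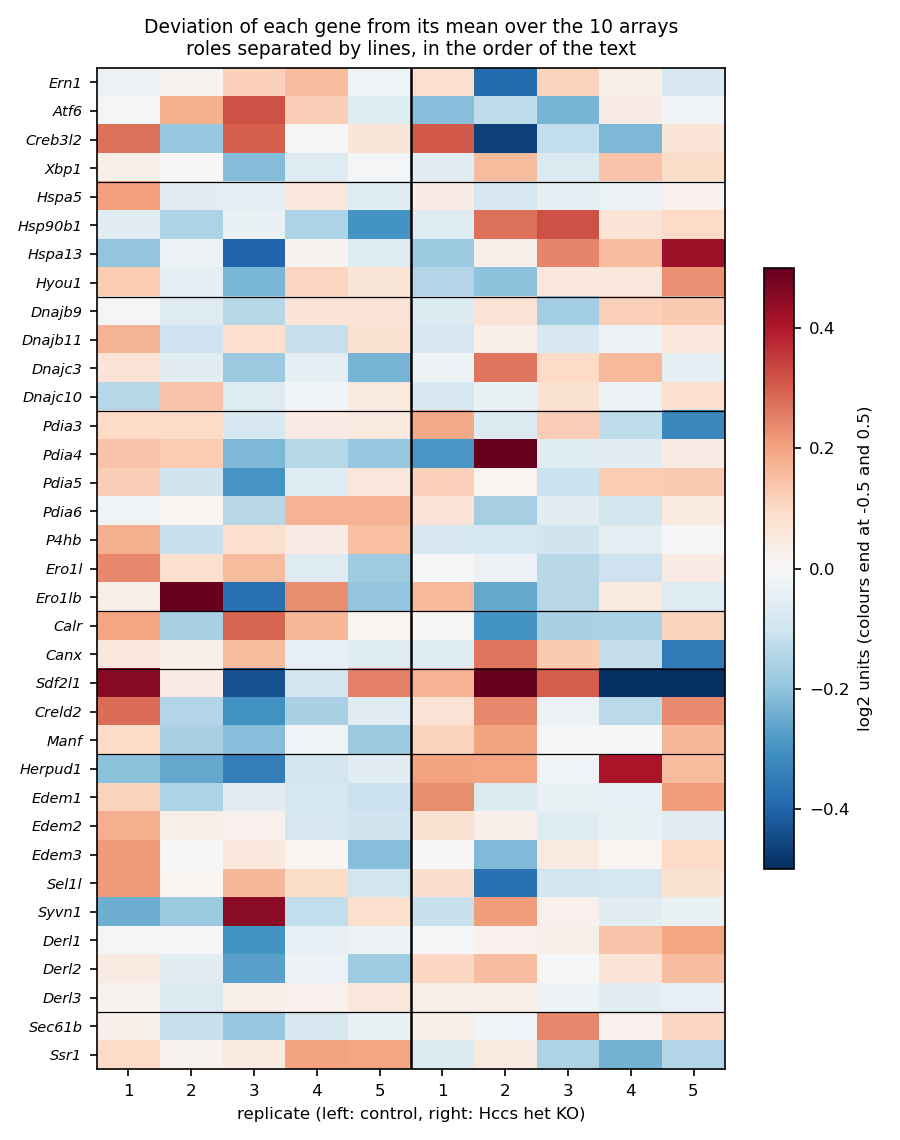
Deviation of each of the 35 genes (vertical, grouped by role) from its own mean over the 10 arrays, in log2 units from blue (lower) to red (higher), with controls 1 to 5 at left and Hccs heterozygous knockouts 1 to 5 at right. Herpud1 is below its mean in all 5 controls and above it in 4 of 5 knockouts (knockout 3 is at -0.014), Sdf2l1 varies within both genotypes, and no genotype is of one colour throughout.

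Averaged over the 35 genes, these deviations were small on every array. They ran from -0.064 (control 3) to 0.079 (control 1) in controls and from -0.023 (knockout 4) to 0.031 (knockout 5) in knockouts, so the genotypes overlapped. Across members, 26 had more than 1 probe set. Of the 51 probe sets that were not the brightest, 27 differed in the same direction as the brightest, and among the 41 brighter than Uty, 25 did.

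**Figure D4:**
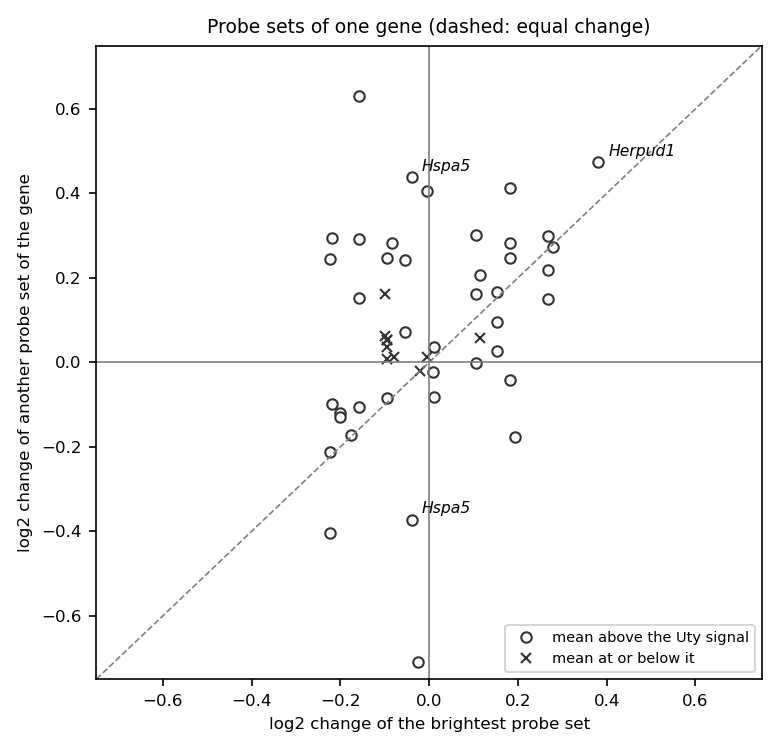
Log2 change (knockout minus control) of each further probe set of a member (vertical axis, 51 probe sets) against that of the same gene's brightest probe set (horizontal axis); open circles have a mean above the Uty signal, crosses do not, and the dashed line marks equal change. Herpud1 lies at upper right near the line, and the Hspa5 probe sets lie at 0.44 and -0.37 over a brightest value near 0.

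The further ER lists gave 2 calls in all, where 1.63% of all genes rose and 0.945% fell. Among all genes, 13.2% were higher and 7.48% lower at an unadjusted p under 0.05. Of 41 other folding factors measured, none passed (median change 0.029). At that unadjusted p, 7 of them were higher (17.1%) and 6 lower (14.6%). Serpinh1, the collagen chaperone, was their brightest at 0.14 (SE 0.053, adjusted p = 0.188). Of 32 other translocation and glycosylation factors, none passed (median 0.036). Here 5 were higher (15.6%) and 1 lower (3.12%) at an unadjusted p under 0.05, and the brightest was Ssr3 at 0.086 (adjusted p = 0.359). Of 17 components of export vesicles, none passed (median -0.0086). In this list 2 were higher (11.8%) and 3 lower (17.6%) at an unadjusted p under 0.05, and the brightest was Sar1b at 0.095 (adjusted p = 0.326). Of 29 other degradation factors, 1 fell: Marchf6, an ER ubiquitin ligase, by 0.26 on the log2 scale (SE 0.057, adjusted p = 0.046). At an unadjusted p under 0.05, 3 of the list were higher (10.3%) and 5 lower (17.2%). The brightest of that list, Vcp, the ATPase that extracts proteins from the ER membrane, differed by -0.16 (adjusted p = 0.124). Of 19 other stress signalling factors, 1 rose: Tmem33, an ER membrane protein, by 0.36 (SE 0.060, adjusted p = 0.0235). At an unadjusted p under 0.05, 5 of these factors were higher (26.3%) and 1 lower (5.26%). Rtcb, the ligase that joins spliced Xbp1, differed by -0.0175 (adjusted p = 0.83). The counts of these lists include genes no brighter than Uty, on which the arrays give little information. They are Pdia2 and Clgn (folding), Tmub1 (degradation), Tmed2 (export), and Creb3l3, Creb3l4 and Ern2 (stress signalling).

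In the branch that runs through ATF4 and CHOP, 8 of 15 genes rose and none fell (53.3%, against 1.63% of all genes), with a median change of 0.64. Means were higher for 12 of the 15 and lower for 3. At an unadjusted p under 0.05, 10 were higher (66.7%, against 13.2% of all genes) and 1 lower (6.67%, against 7.48%). The lower one, Ppp1r15a, named after its value was seen, differed by -0.17 (SE 0.065, adjusted p = 0.18). Asns, which makes asparagine, rose 4.0-fold (SE 0.091 on the log2 scale, adjusted p = 2.34e-05). Trib3, a pseudokinase induced by CHOP, rose by 2.46 (SE 0.285, adjusted p = 0.00951). Atf4 itself rose by 0.56 (SE 0.082, adjusted p = 0.0174), and Chac1, a glutathione-degrading enzyme, rose by 2.48 (SE 0.364, adjusted p = 0.0174) from a low control level of 4.32. Ddit3 (CHOP), named after its value was seen, rose by 0.88 (SE 0.136, adjusted p = 0.0207). The brightest gene of the list that did not pass was Vldlr (0.23, SE 0.122, adjusted p = 0.307). This list was drawn up with earlier results of these arrays known, so its direction is not independent evidence. The difference between this list and the ER members was not tested.

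**Figure D5:**
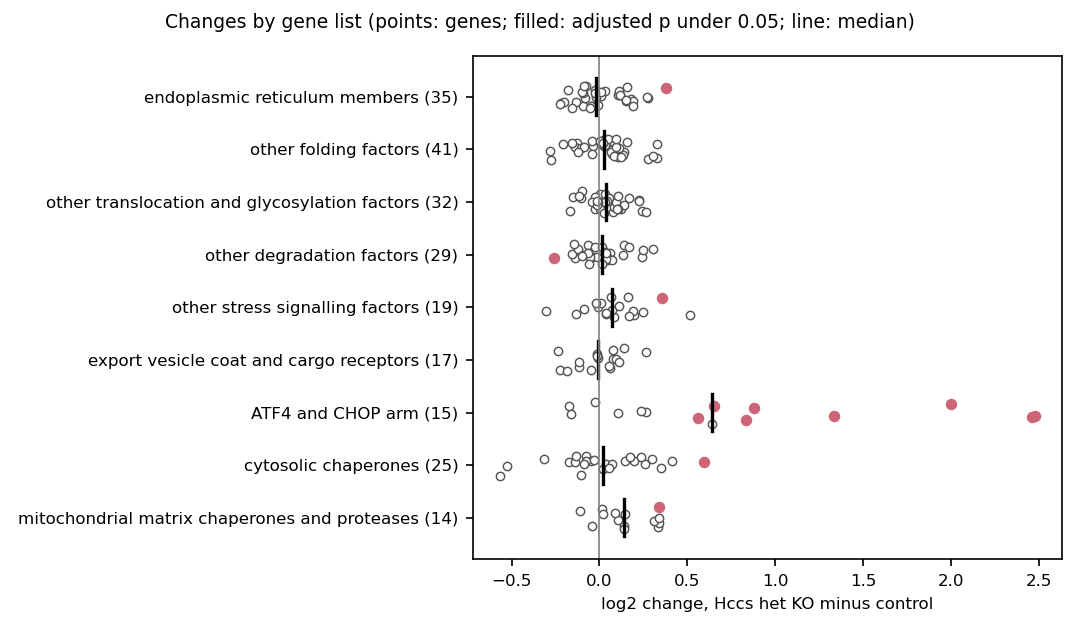
Log2 change (horizontal axis, knockout minus control) of the 35 ER genes and 8 further lists, with the number measured in brackets; each point is a gene, filled where the adjusted p is under 0.05, and the vertical bar is the list's median. The median is 0.64 for the ATF4 and CHOP list and -0.021 for the ER members.

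The lists of cytosolic and mitochondrial chaperones gave 1 call each, 4.0% and 7.14% of their genes, beside 1.63% of all genes that rose. Of 25 cytosolic chaperones, Cct2, a subunit of the TRiC folding ring, rose by 0.59 (SE 0.123, adjusted p = 0.0413). The list's median was 0.020. At an unadjusted p under 0.05, 7 genes were higher (28.0%, against 13.2% of all genes) and 3 lower (12.0%, against 7.48%). Hspa8, the list's brightest gene, differed by 0.20 (SE 0.056, adjusted p = 0.0967). Of 14 mitochondrial matrix chaperones and proteases, Hspa9, the matrix Hsp70, rose by 0.34 (SE 0.073, adjusted p = 0.0447), with a list median of 0.14. In that list 12 of 14 genes had higher means, and 7 of 14 were higher and none lower at an unadjusted p under 0.05. Hspd1, the brightest gene of that list, differed by -0.039 (adjusted p = 0.651).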

How the data were processed

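Total RNA from 10 heart pools was hybridised to Affymetrix arrays, 1 array per pool. Values are the authors' deposited log2 signals, made with RMA in Partek per the submitters' processing notes. Versions are not given in the sources used here. Values ran from 0.602 to 16.6, with array medians of 3.65 to 3.76, and no sequencing depth applies: the number of arrays limits the precision. Of 45101 probe sets, 34945 had exactly 1 gene symbol, 932 had several and 9160 had none. The brightest probe set by its mean over the arrays stood for each of 18193 genes. Genotypes were compared in limma 3.58.1 (R 4.3.3) over all genes, with Benjamini-Hochberg adjustment, and single values by exact permutation. The procedure was tested on simulated data. Replicates are pools of different embryos. All 35 members could be named. Full values were given for members that passed or whose groups did not overlap and for the brightest other member of each role. Hsp90b1, Ssr1 and further probe sets were given in full after their values were seen. In each other list, up to 4 genes that passed and the brightest that did not were named. The members, lists and tests were chosen with earlier results of these data known. Genes with a KDEL-like tail, planned as a further list, were not analysed here.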

Additional observations from a re-analysis of the deposited data

Results flagged for a closer look

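In Derl1, control replicate 3 stood apart at 11.52, while the other 4 controls lay between 11.78 and 11.81. The gap was 0.88 of the whole range, above the Dixon critical value of 0.71 for 5 samples. Both genotypes of all 35 members were checked, 70 groups in all, and chance alone picks out about 5% of groups.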

How the results depend on the processing

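With Herpud1 as the 1 member that rose, the count was 0 with the 18S signal as a covariate, the mean of the probe sets, median centring, quantile normalization, replicates 3 of both genotypes left out or a threshold of 0.01; the Herpud1 change was 0.37 to 0.48 in these fits. With the most variable probe set the Herpud1 call was also lost (0.47, adjusted p = 0.114), and the count of 1 was Hspa5, which reversed to 0.44 (adjusted p = 0.047). The count was 0 to 2 when single arrays were left out, the 2 being Herpud1 and Hsp90b1 without knockout 1. With array weights 1 member fell instead of 0, Ssr1 (-0.27, adjusted p = 0.0308). Members whose groups did not overlap numbered 1, Herpud1. This became 3 with median centring, 2 with the most variable probe set, quantile normalization or replicates 3 left out, and 1 to 4 with single arrays left out. Herpud1 itself overlapped with the most variable probe set, where the 2 were Hspa5 and Ero1l. It also overlapped with the mean of the probe sets, where the 1 was Hsp90b1. In every other setting the Herpud1 groups stayed apart. The Hccs change was -0.50 with the 18S covariate (adjusted p = 0.109) and -0.59 without replicates 3 (adjusted p = 0.0714), and -0.60 to -0.48 with single arrays left out, 4 of those 10 fits losing the call (adjusted p = 0.0511 to 0.0563). Same-numbered arrays correlated at -0.091 to 0.077 and 2 of 10 matched their own number best, so the numbers show no pairing; with a replicate block, 0 members rose (Herpud1 0.38, adjusted p = 0.0651), Hccs changed by -0.55 (adjusted p = 0.0735), and 30 genes rose and 6 fell in all, against 297 and 172. Counts of all genes were 26 and 4 without replicates 3, 631 and 314 with array weights, 149 and 147 with the 18S covariate, 475 and 284 above the median level, 273 and 76 with the mean of probe sets, 274 and 108 with median centring and 332 and 115 with the most variable probe set. With quantile normalization they were 230 and 186, and with single arrays left out 73 to 752 rose and 32 to 290 fell. Of the 34 members not called, 17 kept their sign in every alternative. The causes were not tested.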

Other observations

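After each genotype's mean was subtracted, the ER genes moved together only in part over the 10 arrays. The 595 member pairs had a median correlation of 0.08 (quartiles -0.20 and 0.32), and members paired with other genes had 0.018 (quartiles -0.25 and 0.29). These are descriptions over arrays that share normalization and tissue composition. The pairs named next are extremes, chosen after the values were seen and not tested. Among the highest of the 595, Manf correlated with Derl2 and with Creld2 at 0.86 each, and Creb3l2 with Edem1 at 0.86 and with Calr at 0.84. The lowest pair was Ern1 with Pdia4 at -0.88. For Herpud1, the highest partner was Dnajb9 at 0.81 and the lowest Hsp90b1 at -0.63.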
